A study of Homo sapiens with 20 samples.

Results

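The HOX genes described here are the 39 rows of the deposited expression table that name a protein-coding gene of the HOXA, HOXB, HOXC or HOXD cluster, out of 57992 listed genes. The set was chosen with earlier results of these data known. Its members were selected by name and biotype, not by a measured value. They comprise 11 HOXA genes on chromosome 7, 10 HOXB genes on chromosome 17, 9 HOXC genes on chromosome 12 and 9 HOXD genes on chromosome 2. All 39 had values and all entered the tests between the lines.

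RNA was sequenced from 20 xenograft tumors of human rhabdomyosarcoma cells, a childhood cancer with skeletal muscle features, grown in NOD/SCID mice, which lack functional lymphocytes but keep macrophages, vessels and stroma. The 4 groups were SJRH30 tumors labelled TLE3 knockout (TLE3KO), SJRH30 tumors with a non-targeting control, RD tumors labelled TLE3KO and RD tumors with a non-targeting control, with 5 libraries each. Every tumor was flash frozen, excision was timed by the size of control tumors, and neither the knockout guide, nor a clone, nor host age is given. TLE3 is a transcriptional corepressor of the Groucho family. SJRH30 is an alveolar line that carries the PAX3-FOXO1 fusion and RD is an embryonal line without it, so each histology is represented by 1 line, and line, histology and fusion cannot be told apart. Whether the 5 libraries of a group stem from different host animals is not given, and p-values therefore measure only the spread between libraries. Fewer tumor cells and less RNA per cell cannot be told apart in bulk tissue.

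HOX genes encode homeodomain transcription factors that give cells a position along the body axis. Genes with the same number in different clusters are paralogs, and numbers run from the 3' end of a cluster, active early and towards the head, to the 5' end, active late and in the trunk, limb and tail. Polycomb complexes hold silent HOX genes shut, trithorax and MLL complexes keep active ones open, and the TALE proteins PBX, MEIS and PKNOX bind DNA together with HOX proteins.

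Values are the authors' normalized counts, printed as deposited. Levels of different genes are compared only after division by exon length (normalized counts per kb). Most libraries were deep, with normalized counts that summed to 26.05 M to 60.69 M in 18 of 20. SJRH30 control 3 held 2.14 M reads and RD TLE3KO 5 held 9.64 M, so 1 read is worth 10.895 and 4.936 units there, and mitochondrial transcripts made up 20.4% and 32.4% of them against 2.3% to 16.9% elsewhere. Counts of calls over the HOX genes and over the other gene lists are therefore also given without both. The line labels were met by 6 of 6 PAX3-FOXO1 target genes called higher in SJRH30 controls. Rhabdomyosarcoma markers were above 0 in every group, but the summed level of 8 of them was 6841 in SJRH30 control 3, against 72871 to 215228 in the other SJRH30 controls. TLE3 itself was listed at 967, 806, 582, 637 and 809 in SJRH30 TLE3KO libraries, against 426, 638, 185, 597 and 407 in SJRH30 controls. It was listed at 1465, 1357, 1032, 1547 and 424 in RD TLE3KO libraries, against 1345, 1810, 2622, 1270 and 1809 in RD controls. TLE3 RNA was called different in neither line (limma adjusted p = 0.557 in SJRH30 and 0.606 in RD), so the knockout is known from the labels only.

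Both lines expressed genes of all 4 clusters, and RD expressed more of them. With presence set at a normalized count of at least 20 in at least 4 of 5 libraries, 28 of 39 members were present in SJRH30 TLE3KO tumors and 29 in SJRH30 controls, against 35 in RD TLE3KO tumors and 35 in RD controls. The same rule held for 78.2% and 78.2% of 19932 protein-coding genes in SJRH30 TLE3KO and control tumors, and for 82.5% and 83.7% in RD TLE3KO and control tumors. HOX shares were 71.8% and 74.4% in SJRH30 TLE3KO and control tumors and 89.7% in each RD group, a few genes below this background in SJRH30 and a few above it in RD. The cluster that differed most in presence was HOXD, with 4 of 9 genes present in each SJRH30 group and 7 of 9 in each RD group.

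HOXB1, HOXD1 and HOXD12 were absent by this rule in all 4 groups. HOXB1, the hindbrain gene of the HOXB cluster, was listed at 0 to 22 over the 20 libraries, and that highest value is 2 reads of SJRH30 control 3. HOXB9, HOXC5, HOXC12, HOXD4, HOXD10 and HOXD11 were present in both RD groups and absent in both SJRH30 groups. HOXA13 and HOXC8 were present in both RD groups and in 1 of the SJRH30 groups. HOXA6 was the only member present in an SJRH30 group and in neither RD group, and it lay at the threshold, with 17, 53, 22, 41 and 20 in SJRH30 controls against 18, 20, 19, 47 and 34 in RD controls.

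**Figure D1:**
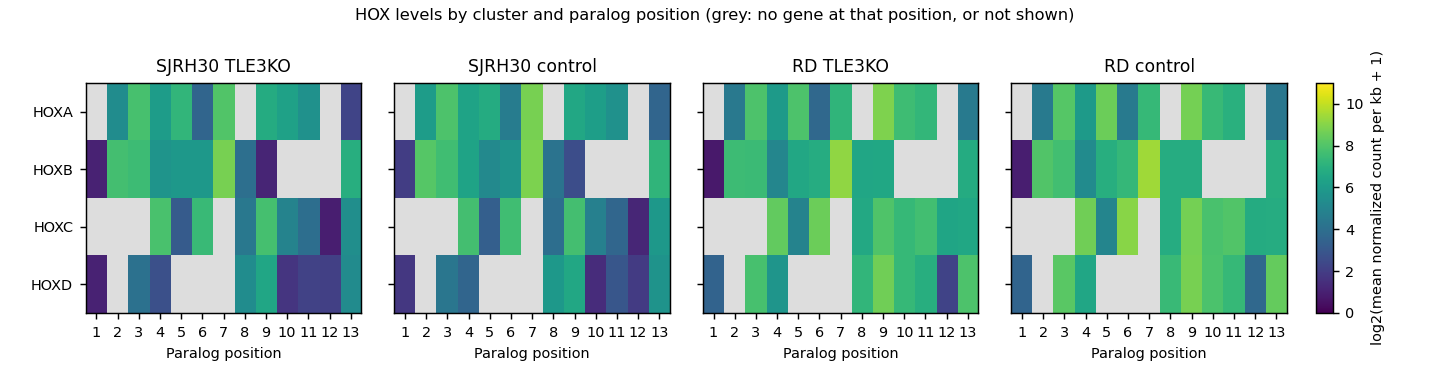
Mean level of each HOX gene by cluster (rows) and paralog position (columns) in the 4 groups, as log2(mean normalized count per kb + 1), with grey where no gene exists or none is shown. Dark cells in both SJRH30 panels include HOXB9, HOXC12, HOXD1 and HOXD10 to HOXD12. HOXD12 is also dark for RD TLE3KO tumors, and HOXB1 is dark in all 4 panels.

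In SJRH30 controls the HOXB, HOXC and HOXD clusters each held low genes between more abundant ones near the 5' end. In HOXB, HOXB13 averaged 145 normalized counts per kb, HOXB9 and HOXB8 averaged 5.1 and 17.2, and HOXB7 averaged 454. In HOXC, HOXC13 averaged 56.9, HOXC12, HOXC11 and HOXC10 averaged 1.3, 11.4 and 26.4, and HOXC9 averaged 208. In HOXD, HOXD13 averaged 49.0, HOXD12, HOXD11 and HOXD10 averaged 2.8, 6.6 and 1.6, and HOXD9 averaged 94.7. Of these low genes, HOXB8, HOXC10 and HOXC11 were present by the rule. In the HOXA cluster, HOXA9, HOXA10, HOXA11 and HOXA13 were all present, at 94.7, 69.9, 46.3 and 11.2.

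HOXB7, a trunk gene of the HOXB cluster, had the highest level per kb of all 39 in each of the 4 groups. It averaged 429 ± 90.4 per kb in SJRH30 TLE3KO tumors, 454 ± 237 in SJRH30 controls, 572 ± 175 in RD TLE3KO tumors and 700 ± 214 in RD controls (SD, n = 5 each). The genes ranked after it differed between the lines. In SJRH30 controls they were HOXA7, HOXB2, HOXA3 and HOXC4, at 423, 272, 245 and 210 per kb. In RD controls they were HOXC6, HOXD9, HOXC9 and HOXA9, at 523, 434, 421 and 413 per kb. HOXB7 and HOXA7 differed by less than 1 SD in SJRH30 controls, and so did each pair of neighbours among HOXC6, HOXD9, HOXC9 and HOXA9 in RD controls, so their order is not beyond the spread. HOXB7 lay above HOXC6 in all 5 RD controls.

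Summed over each cluster, the HOXD level was the most unequal between lines. HOXD summed to 201 ± 35.2 per kb in SJRH30 TLE3KO tumors and 245 ± 39.9 in SJRH30 controls, against 1345 ± 429 in RD TLE3KO tumors and 1740 ± 361 in RD controls (SD, n = 5 each). HOXC summed to 739 ± 56.0 and 735.5 ± 243 in SJRH30 TLE3KO and control tumors, against 1607 ± 513 and 2178 ± 416 in RD TLE3KO and control tumors. These groups did not overlap in HOXD, where the highest SJRH30 library held 289.5 per kb and the lowest RD library 687.1. HOXB summed to 1123 ± 114 and 1259 ± 714 in SJRH30 TLE3KO and control tumors, against 1468 ± 483 and 1822.5 ± 515 in RD TLE3KO and control tumors. HOXA summed to 1020.1 ± 51.9 and 1222 ± 435 in SJRH30 TLE3KO and control tumors, against 1582 ± 713 and 1650 ± 359 in RD TLE3KO and control tumors. For HOXA and HOXB the lines overlapped. For HOXC they overlapped only through the shallow RD TLE3KO 5, at 722.9 per kb, where SJRH30 controls reached 1016.3. As a share of the summed HOX level, HOXD held 7.9% in SJRH30 controls and 23.6% in RD controls.

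The position along the clusters also differed. Positions 9 to 13 held 25.9% and 24.0% of the summed HOX level in SJRH30 TLE3KO and control tumors, against 45.7% and 43.8% in RD TLE3KO and control tumors. In single libraries the share ran from 21.3% to 27.4% over SJRH30 and from 42.1% to 47.3% over RD, so no library of one line fell in the range of the other, the shallow ones included. Positions 1 to 3 held 23.1% and 25.4% in SJRH30 TLE3KO and control tumors, against 14.3% and 14.7% in RD TLE3KO and control tumors. Positions 4 to 8 held 50.6% in SJRH30 controls and 41.5% in RD controls. These are shares, and the mean summed level was lower in SJRH30 controls for each of the 3 sets. It was 831 per kb in SJRH30 controls and 3254.5 in RD controls for positions 9 to 13. For positions 4 to 8 it was 1777 and 3060, and for positions 1 to 3 it was 854 ± 292 and 1076 ± 189 (SD, n = 5 each). The control groups overlapped for positions 1 to 3 and for positions 4 to 8, where SJRH30 reached 2835.3 and RD began at 2329.8.

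**Figure D2:**
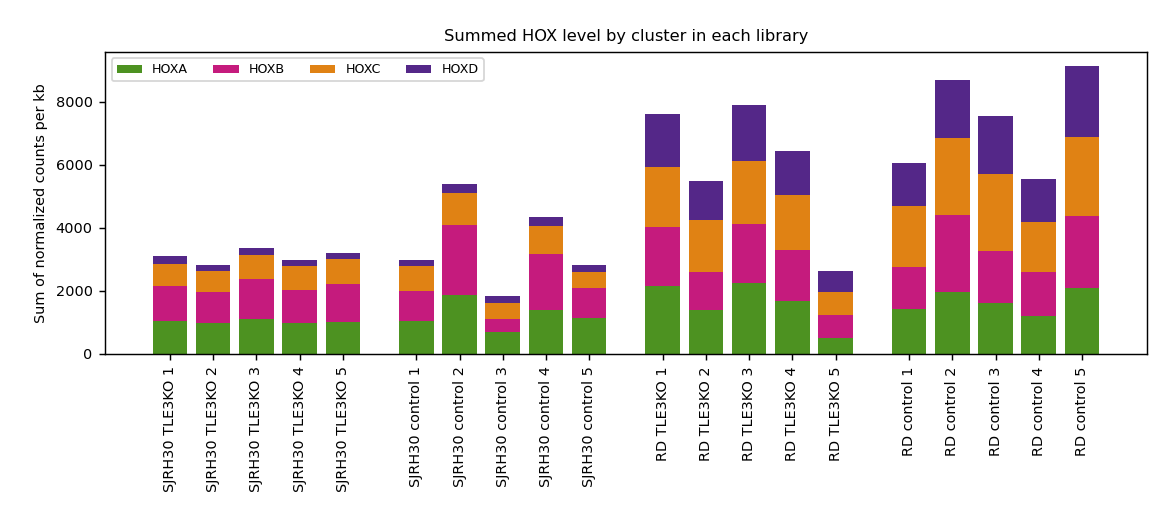
Sum of normalized counts per kb over the HOX genes in each of the 20 libraries, stacked by cluster, with SJRH30 libraries left of RD libraries and TLE3KO left of control. The HOXD part is thin in SJRH30, at most 289.5, and at least 687.1 in RD, and SJRH30 control 3 and RD TLE3KO 5 have the lowest totals of their groups.

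The promoters of HOXD11 and HOXD10, silent by the presence rule in SJRH30 and expressed in RD, are printed beside those of HOXA2 and HOXA7, which were higher in SJRH30 controls once the shallow libraries were left out. Each runs 250 bases before to 50 after a start site in RefSeq on GRCh38.p14, and is read 5' to 3' on the strand of the gene. Capitals mark the CG dinucleotides, the sites of DNA methylation. HOXD11 is on the + strand at chr2:176107030-176107329, HOXD10 on the + strand at chr2:176116528-176116827, HOXA2 on the − strand at chr7:27102634-27102933 and HOXA7 on the − strand at chr7:27156626-27156925.
HOXD11: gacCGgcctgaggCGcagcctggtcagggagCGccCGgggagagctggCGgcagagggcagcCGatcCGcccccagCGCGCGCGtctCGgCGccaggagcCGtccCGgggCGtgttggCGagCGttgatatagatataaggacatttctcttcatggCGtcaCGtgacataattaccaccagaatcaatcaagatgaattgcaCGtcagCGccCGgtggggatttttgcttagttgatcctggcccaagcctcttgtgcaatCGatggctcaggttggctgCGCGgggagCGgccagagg
HOXD10: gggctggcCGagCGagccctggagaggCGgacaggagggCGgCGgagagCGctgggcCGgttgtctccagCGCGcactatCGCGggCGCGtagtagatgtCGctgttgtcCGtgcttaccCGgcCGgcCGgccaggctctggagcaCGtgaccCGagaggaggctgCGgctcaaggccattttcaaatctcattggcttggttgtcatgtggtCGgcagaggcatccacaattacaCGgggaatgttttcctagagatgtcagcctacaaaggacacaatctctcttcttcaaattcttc
HOXA2: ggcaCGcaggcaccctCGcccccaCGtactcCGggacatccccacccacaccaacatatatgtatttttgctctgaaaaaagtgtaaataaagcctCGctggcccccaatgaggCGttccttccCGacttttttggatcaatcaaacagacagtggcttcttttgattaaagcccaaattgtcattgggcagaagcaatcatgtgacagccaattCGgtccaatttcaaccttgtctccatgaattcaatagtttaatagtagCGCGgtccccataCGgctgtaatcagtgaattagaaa
HOXA7: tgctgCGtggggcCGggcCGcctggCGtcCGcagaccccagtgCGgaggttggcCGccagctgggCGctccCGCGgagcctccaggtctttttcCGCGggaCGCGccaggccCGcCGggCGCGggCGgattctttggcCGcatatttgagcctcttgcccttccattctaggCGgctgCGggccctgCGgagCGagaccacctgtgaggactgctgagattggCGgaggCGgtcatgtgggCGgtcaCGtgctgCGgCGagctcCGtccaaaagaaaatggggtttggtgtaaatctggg
The printed promoters hold 27, 23, 11 and 31 CG dinucleotides for HOXD11, HOXD10, HOXA2 and HOXA7, against a median of 14 over all 35116 RefSeq promoters of that length. The table matched 20 of the 39 members, with 27 start sites among them and a median of 22 CG dinucleotides. TGATNNAT, a motif bound by PBX and HOX together, was searched on both strands and occurs in 7.4% of all promoters. Among the matched members it was found in HOXD11, which is low in SJRH30, in HOXA2, which is not, and in HOXB1, which is absent in both lines. TATAAA, the core TATA box, occurs in 11.5% of all promoters on either strand and was found at HOXD13, HOXA9, both HOXA10 starts and 1 of the HOXA3 starts. A match describes the letters of the window and no binding or methylation was measured.

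Comparing SJRH30 controls with RD controls asks how the lines differ with TLE3 intact by label. Of the 39 members, 24 were lower in SJRH30 controls and 1 was higher, against 12.5% lower and 6.23% higher of 44294 genes tested (limma on log2(value + 1), Benjamini-Hochberg adjusted p below 0.05). All 9 HOXD genes were called lower, with 7 of 9 HOXC genes, 4 of 10 HOXB genes and 4 of 11 HOXA genes. HOXD1 and HOXD12 were among the 9, though absent in both lines by the presence rule. The counts lower were 9 of 9 HOXD, 9 of 9 HOXC, 4 of 10 HOXB and 5 of 11 HOXA genes without the shallow libraries. The median log2 difference was −1.68 over the HOX genes and −0.45 over all genes tested. With every library shifted to the same median, 20 members were lower and 2 higher (HOXB4 among them), against 8.38% and 10.6% of all genes. Without the shallow libraries 27 were lower and 4 higher (HOXA2, HOXA7 and HOXB4 among them), against 22.4% and 18.1%. Markers of fibroblasts and pericytes, stromal cells that can also express HOX genes, moved with the lines, with 3 of 9 called lower in SJRH30 controls, 5 of 9 without the shallow libraries, and none at 0. Their summed level was 33947 to 108106 in SJRH30 controls and 92040 to 229500 in RD controls, the notes mention no removal of mouse reads, and the part of stroma in the result was not tested.

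By position, 12 of the 16 genes at positions 9 to 13 were lower in SJRH30 controls, 10 of the 15 at positions 4 to 8, and 2 of the 8 at positions 1 to 3. The median log2 differences of these groups of genes were −2.53, −1.68 and −0.15. Both genes called lower at positions 1 to 3 were HOXD genes, HOXD1 and HOXD3. The counts lower became 15, 10 and 2 without the shallow libraries, and the medians −2.36, −1.55 and 0.13.

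The HOXD genes at positions 10 and 11, which pattern the limb and the genital and digestive tracts, were nearly silent in SJRH30, and HOXD10 had the largest difference of the 39 in controls. HOXD10 was listed at 14, 2, 6, 2 and 5 in SJRH30 TLE3KO libraries and at 10, 5, 0, 3 and 3 in SJRH30 controls. It was listed at 543, 394, 571, 449 and 237 in RD TLE3KO libraries and at 434, 806, 671, 446 and 822 in RD controls. Every RD library lay above every SJRH30 library, and the SJRH30 values are near the limit of detection. The log2 difference of SJRH30 from RD was −7.25 ± 0.56 in controls (SE, limma adjusted p = 3.93e-09) and −6.22 ± 0.56 in TLE3KO tumors (adjusted p = 3.1e-08). Its size depends on the constant added before the log, from −7.57 with 0.5 to −5.72 with 8 in controls.

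HOXD11 was listed at 11, 10, 7, 4 and 5 in SJRH30 TLE3KO libraries and at 12, 5, 44, 8 and 1 in SJRH30 controls. It was listed at 271, 193, 328, 252 and 188 in RD TLE3KO libraries and at 207, 407, 334, 290 and 498 in RD controls. The one SJRH30 value above 12 was in the shallow SJRH30 control 3, where 44 units are 4 reads. The log2 difference was −5.19 ± 0.58 in controls (SE, limma adjusted p = 7.29e-07) and −4.93 ± 0.58 in TLE3KO tumors (adjusted p = 1.44e-06). HOXD10 and HOXD11 share 16.8% and 21.4% of their exon bases with each other on the same strand, so part of their counts could be split by the counting.

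Of the other HOXD genes, HOXD3, HOXD8, HOXD9 and HOXD13 were present in SJRH30, HOXD4 was absent there and present in RD, and HOXD1 and HOXD12 were absent in both lines. HOXD13, the most 5' gene of the cluster and a digit gene, was listed at 88, 98, 117, 49 and 85 in SJRH30 TLE3KO libraries and at 83, 98, 109, 101 and 158 in SJRH30 controls. RD libraries held 688, 373, 947, 431 and 237 with the TLE3KO label and 578, 823, 590, 597 and 1129 as controls. No RD library reached down to the SJRH30 range, and the log2 difference was −2.73 ± 0.36 in controls (SE, limma adjusted p = 6.76e-06).

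HOXD9 was the most abundant HOXD gene per kb in every group, and was listed at 264, 110, 166, 148 and 158 in SJRH30 TLE3KO libraries and at 114, 297, 33, 272 and 169 in SJRH30 controls. In RD tumors the values were 725, 811, 688, 1081 and 355 in TLE3KO libraries and 637, 827, 1145, 457 and 988 in controls. The groups did not overlap, and the log2 difference was −2.46 ± 0.47 in controls (SE, limma adjusted p = 0.000569).

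HOXD3 was listed at 43, 66, 65, 75 and 34 in SJRH30 TLE3KO libraries and at 61, 58, 87, 95 and 36 in SJRH30 controls. The RD group values were 1190, 719, 1061, 666 and 242 in TLE3KO libraries and 843, 1007, 1169, 937 and 1125 in controls, all above the SJRH30 range. Its log2 difference in controls was −3.96 ± 0.38 (SE, limma adjusted p = 1.03e-07). HOXD4 was listed at 7, 7, 16, 7 and 3 in SJRH30 TLE3KO libraries and at 10, 40, 0, 28 and 2 in SJRH30 controls, against 128, 67, 80, 30 and 84 in RD TLE3KO libraries and 74, 121, 117, 146 and 197 in RD controls. Its log2 difference in controls was −3.92 ± 0.76 (SE, limma adjusted p = 0.000745). HOXD3 and HOXD4 share 74.1% and 80.5% of their exon bases with other annotated genes, mainly the readthrough gene AC009336.2, so their counts are uncertain.

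HOXD8 was listed at 104, 85, 102, 102 and 128 in SJRH30 TLE3KO libraries and at 163, 100, 272, 104 and 123 in SJRH30 controls. RD libraries held 594, 345, 596, 257 and 168 with the TLE3KO label and 539, 411, 379, 475 and 500 as controls. The controls did not overlap, and the log2 difference was −1.68 ± 0.35 (SE, limma adjusted p = 0.00148). HOXD12 and HOXD1 were low in both lines, at 0 to 11 and 0 to 22 in SJRH30 controls against 6 to 29 and 14 to 32 in RD controls. HOXD12 passed narrowly in controls (limma adjusted p = 0.0466). In TLE3KO tumors HOXD12 differed by 0.23 ± 0.90 with all libraries and −0.20 ± 0.83 without the shallow ones (SE). Neither was called (limma adjusted p = 0.894 and 0.892). HOXD1 shares 58.1% of its exon bases with other annotated genes, so its counts are uncertain.

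**Figure D3:**
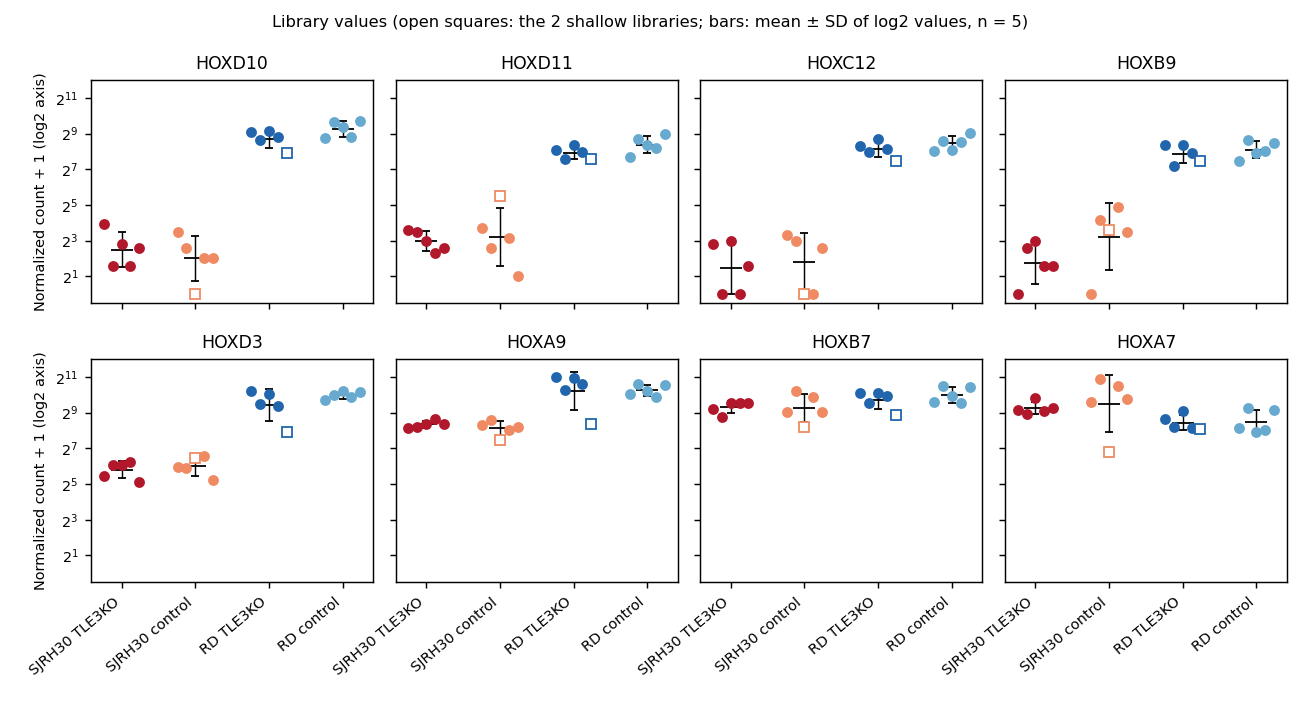
Normalized count + 1 on a log2 axis for 8 members, 1 point per library, with the mean ± SD of log2 values over 5 libraries and open squares for the shallow libraries. HOXD10, HOXD11, HOXC12 and HOXB9 lie at or below 44 in every SJRH30 library and at or above 146 in every RD library, and HOXB7 and HOXA7 overlap between the lines.

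In the HOXC cluster the drop in SJRH30 was steepest at positions 11 and 12. HOXC12 was listed at 6, 0, 7, 0 and 2 in SJRH30 TLE3KO libraries and at 9, 7, 0, 0 and 5 in SJRH30 controls. Its RD values were 321, 246, 415, 283 and 178 in TLE3KO libraries and 260, 381, 267, 373 and 523 in controls. The groups lay far apart, with a log2 difference of −6.67 ± 0.70 in controls (SE, limma adjusted p = 3.29e-07) and −6.64 ± 0.70 in TLE3KO tumors (adjusted p = 3.27e-07). With 8 added in place of 1 the difference in controls was −4.94.

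HOXC11, named here after its values were seen, was present in both lines, at 22 to 77 in SJRH30 TLE3KO libraries and 0 to 64 in SJRH30 controls, against 360 to 854 in RD TLE3KO libraries and 440 to 1118 in RD controls. Its log2 difference was −5.19 ± 0.76 in controls with all libraries, and −4.08 ± 0.35 without the shallow ones, where SJRH30 control 3 had been at 0 (SE, limma adjusted p = 3.12e-05 and 2.08e-09). HOXC10 was listed at 48 to 118 in SJRH30 TLE3KO libraries and 28 to 109 in SJRH30 controls, against 207 to 565 in RD TLE3KO libraries and 304 to 768 in RD controls. HOXC13 was listed at 109 to 211 in SJRH30 controls and 190 to 329 in RD controls and did not pass (limma adjusted p = 0.0775).

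Further 3', HOXC4, HOXC6 and HOXC9 were abundant in both lines, and HOXC5 and HOXC8 were low in SJRH30 controls. HOXC6, a thoracic gene, was listed at 546, 558, 658, 679 and 661 in SJRH30 TLE3KO libraries and at 747, 882, 577, 892 and 402 in SJRH30 controls. RD libraries held 1461, 1395, 1552, 1482 and 558 with the TLE3KO label and 1763, 2065, 2110, 1260 and 2052 as controls. All RD libraries but TLE3KO 5 lay above SJRH30, and the log2 difference was −1.44 ± 0.30 in controls (SE, limma adjusted p = 0.00153). In TLE3KO tumors it was −0.97 ± 0.30 (SE, limma adjusted p = 0.0278), and 7 of 20 fits with 1 library left out lost that call, at adjusted p of up to 0.0699.

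HOXC9 was listed at 335, 320, 385, 401 and 390 in SJRH30 TLE3KO libraries and at 397, 526, 76, 517 and 229 in SJRH30 controls. In RD tumors the values were 475, 493, 496, 503 and 118 in TLE3KO libraries and 641, 745, 1061, 431 and 653 in controls. Controls overlapped between 431 and 526, and the log2 difference of −1.24 ± 0.46 did not pass (limma adjusted p = 0.0638). Without the shallow libraries it was −0.77 and passed (limma adjusted p = 0.0224).

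HOXC4 was listed at 604, 605, 575, 607 and 754 in SJRH30 TLE3KO libraries and at 534, 806, 425, 666 and 430 in SJRH30 controls. RD libraries held 1177, 974, 1093, 886 and 296 with the TLE3KO label and 983, 1102, 1016, 946 and 1289 as controls. The controls did not overlap and the log2 difference was −0.93 ± 0.32 (SE, limma adjusted p = 0.0425), but 12 of 20 fits with 1 library left out lost the call, at adjusted p from 0.0504 to 0.0957. HOXC8 was listed at 3 to 61 in SJRH30 controls and 60 to 312 in RD controls, with a log2 difference of −3.22 ± 0.62 (SE, limma adjusted p = 0.000631). HOXC5 was listed at 0 to 31 in SJRH30 controls and 41 to 65 in RD controls, and shares 59.9% of its exon bases with other rows. A second row of that name, a processed transcript and no member, held 143 to 309 in SJRH30 controls and 539 to 943 in RD controls.

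In the HOXB cluster HOXB5, HOXB6, HOXB8 and HOXB9 were lower in SJRH30 controls, and HOXB9 differed most. HOXB9 was listed at 0, 5, 7, 2 and 2 in SJRH30 TLE3KO libraries and at 0, 17, 11, 28 and 10 in SJRH30 controls. The RD group values were 322, 146, 323, 240 and 178 in TLE3KO libraries and 173, 392, 243, 261 and 360 in controls. No SJRH30 library came near the RD range, and the log2 difference was −4.89 ± 0.70 in controls and −6.10 ± 0.70 in TLE3KO tumors (SE, limma adjusted p = 2.29e-05 and 1.12e-06). HOXB8 was also lower, with 5 to 76 in SJRH30 controls against 170 to 302 in RD controls and a log2 difference of −3.09 ± 0.54 (SE, limma adjusted p = 0.000239). HOXB5 was listed at 0 to 164 in SJRH30 controls and 164 to 357 in RD controls, and HOXB6 at 76 to 229 in SJRH30 controls and 234 to 673 in RD controls, and both passed (limma adjusted p = 0.0264 and 0.0442).

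HOXB7 itself was listed at 596, 439, 739, 753 and 753 in SJRH30 TLE3KO libraries and at 520, 1192, 294, 935 and 530 in SJRH30 controls. Its RD values were 1082, 742, 1096, 982 and 469 in TLE3KO libraries and 779, 1449, 992, 752 and 1373 in controls. The control groups overlapped, and the log2 difference of −0.73 ± 0.35 did not pass (limma adjusted p = 0.148).

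HOXB2, a hindbrain gene, was listed at 534, 458, 655, 259 and 531 in SJRH30 TLE3KO libraries and at 513, 1110, 163, 871 and 524 in SJRH30 controls. Among RD tumors it was listed at 640, 318, 611, 392 and 222 in TLE3KO libraries and at 425, 805, 461, 497 and 845 in controls, within the SJRH30 range. HOXB3 was listed at 1476, 1632, 1035, 1333 and 1418 in SJRH30 TLE3KO libraries and at 1145, 2580, 479, 2013 and 1068 in SJRH30 controls, against 1672, 1215, 1537, 1644 and 602 in RD TLE3KO libraries and 1300, 2007, 1556, 1157 and 1648 in RD controls. Both genes overlapped fully between the lines and differed by −0.13 ± 0.43 and −0.27 ± 0.37 in controls and did not pass (SE, limma adjusted p = 0.859 and 0.641), and both signs turned without the shallow libraries or with the shifted medians.

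HOXB13, a tail and prostate gene at the far 5' end, was named after its values were seen because it was kept in both lines. It was listed at 437, 335, 601, 213 and 449 in SJRH30 TLE3KO libraries and at 361, 948, 0, 779 and 430 in SJRH30 controls. RD libraries held 432, 317, 454, 345 and 331 with the TLE3KO label and 228, 472, 377, 349 and 601 as controls. The lines overlapped, and the log2 difference in controls was −1.24 ± 1.15 with all libraries and 0.59 ± 0.33 without the shallow ones, where the 0 of SJRH30 control 3 drops out (SE, limma adjusted p = 0.468 and 0.152). PRAC2 and PRAC1 are the genes next to HOXB13. PRAC1 was listed at 0 to 9 in SJRH30 TLE3KO libraries and 0 to 5 in SJRH30 controls, against 189 to 345 in RD TLE3KO libraries and 134 to 385 in RD controls, with a log2 difference in controls of −6.98 ± 0.65 (SE, limma adjusted p = 6.54e-08). PRAC2 was listed at 44 to 82 and 0 to 75 in SJRH30 TLE3KO and control libraries, against 543 to 1008 and 687 to 1292 in RD TLE3KO and control libraries, with a log2 difference in controls of −5.58 ± 0.74 (SE, limma adjusted p = 8e-06). The difference between HOXB13 and these neighbours was not tested.

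In the HOXA cluster 4 genes fell in SJRH30 controls without a call for HOXA2 or HOXA7 with all libraries. HOXA9, a trunk gene and a known oncogene in leukemia, was listed at 281, 287, 330, 401 and 334 in SJRH30 TLE3KO libraries and at 321, 391, 174, 256 and 292 in SJRH30 controls. In RD tumors the values were 2007, 1214, 1967, 1538 and 331 in TLE3KO libraries and 1064, 1531, 1198, 931 and 1525 in controls. Control groups did not overlap, and the log2 difference was −2.14 ± 0.38 (SE, limma adjusted p = 0.000288). HOXA5, HOXA10 and HOXA11 were lower too, by −1.75 ± 0.46, −1.29 ± 0.42 and −1.49 ± 0.37 (SE, limma adjusted p = 0.00935, 0.0345 and 0.00637).

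HOXA5, a gene of lung and cervical patterning, was listed at 283, 291, 202, 254 and 236 in SJRH30 TLE3KO libraries and at 164, 253, 131, 188 and 196 in SJRH30 controls. Among RD tumors it was listed at 575, 404, 616, 435 and 54 in TLE3KO libraries and at 561, 680, 629, 479 and 769 in controls. Controls lay apart, while the shallow RD TLE3KO 5 fell below all SJRH30 libraries, and in TLE3KO tumors the log2 difference was −0.35 ± 0.46 with it and −0.99 without it (SE, limma adjusted p = 0.65 and 0.0109). HOXA10 was listed at 153 to 341 in SJRH30 controls and 473 to 843 in RD controls, and HOXA11 at 62 to 218 in SJRH30 controls and 142 to 388 in RD controls.

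HOXA2, a gene of the hindbrain and branchial arches, was named after its values were seen. It was listed at 102, 100, 93, 91 and 99 in SJRH30 TLE3KO libraries and at 133, 161, 251, 142 and 130 in SJRH30 controls. Its RD values were 89, 47, 96, 21 and 0 in TLE3KO libraries and 40, 54, 65, 49 and 67 in controls. SJRH30 controls lay above RD controls without overlap, and the log2 difference was 1.53 ± 0.79 with all libraries (SE, limma adjusted p = 0.182) and 1.37 ± 0.36 without the shallow ones (adjusted p = 0.00415). HOXA7 was listed at 570, 477, 896, 547 and 622 in SJRH30 TLE3KO libraries and at 767, 1871, 109, 1463 and 886 in SJRH30 controls, against 401, 294, 536, 281 and 271 in RD TLE3KO libraries and 282, 610, 240, 257 and 575 in RD controls. Its log2 difference in controls was 1.01 ± 0.53 (SE, limma adjusted p = 0.185) and, without SJRH30 control 3 alone, 1.69 (adjusted p = 0.000318). HOXA7 shares 62.5% of its exon bases with HOXA-AS3 on the opposite strand, and the library kit is not stated to mark strand.

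HOXA3 was listed at 1071, 1034, 838, 956 and 925 in SJRH30 TLE3KO libraries and at 860, 1378, 959, 1148 and 936 in SJRH30 controls. RD libraries held 1393, 986, 1409, 1185 and 301 with the TLE3KO label and 1056, 1250, 1419, 871 and 1371 as controls. The lines overlapped, and the log2 difference of −0.17 ± 0.33 in controls did not pass (SE, limma adjusted p = 0.746). HOXA6 was listed at 7, 21, 29, 2 and 11 in SJRH30 TLE3KO libraries and at 26, 21, 18, 12 and 0 in RD TLE3KO libraries, and with the control values above it showed no separation. HOXA4 was listed at 33 to 225 in SJRH30 controls and 58 to 166 in RD controls. HOXB4, named after its values were seen, was listed at 87 to 590 in SJRH30 controls and 112 to 185 in RD controls, with a log2 difference of 0.85 ± 0.41 that was called only without SJRH30 control 3 or with the shifted medians (SE, limma adjusted p = 0.153, 0.00628 and 0.03).

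**Figure D4:**
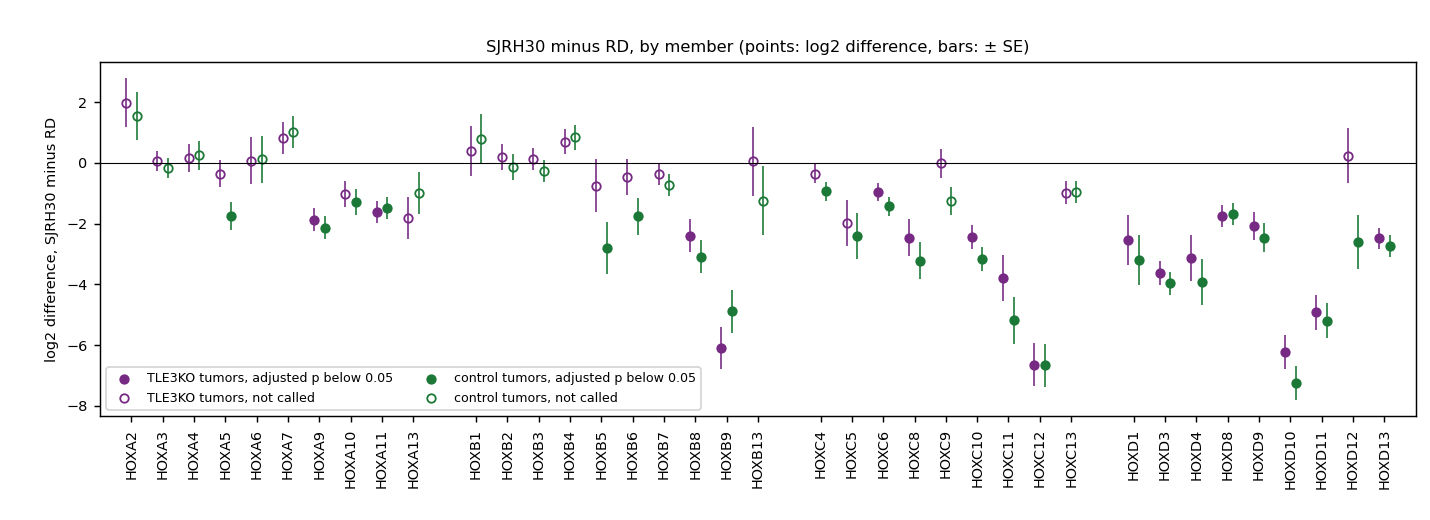
Log2 difference of SJRH30 from RD for 38 members in cluster order, in TLE3KO tumors (left point) and in controls (right point), with bars of ± SE and filled points where the limma adjusted p is below 0.05. All HOXD points in controls are filled and below 0, and the lowest points are HOXB9, HOXC12 and HOXD10.

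In TLE3KO tumors, 17 of 39 members were lower in SJRH30 than in RD and 1 was higher, against 8.94% lower and 8.01% higher of 44294 genes (limma). Those 17 were all among the 24 called lower in controls, and the other 7 were HOXA5, HOXA10, HOXB5, HOXB6, HOXC4, HOXC5 and HOXD12. Without the shallow libraries 25 were lower and 1 higher, against 14.2% and 12.6% of all genes, and 25 were shared with controls. With 1 library left out in turn, 15 to 22 were lower and 0 to 2 higher, where 3027 to 6198 of all genes were lower and 2601 to 6402 higher. With the replicate block 17 were lower and 0 higher, where 3342 of 44294 genes were lower and 2905 higher. Of the 9 fibroblast and pericyte markers, 4 were lower and 1 higher in SJRH30 TLE3KO tumors, 6 and 1 without the shallow libraries, with a summed level of 13904 to 83914 there and 25149 to 190424 in RD TLE3KO tumors. The comparisons rest on separate libraries but on 1 common estimate of spread. Counting libraries, 14 members in TLE3KO tumors and 19 in controls had every SJRH30 library below every RD library, against 8.97% and 8.93% of genes. The reverse held for 0 members in TLE3KO tumors and for 2 in controls, HOXA2 among them, against 9.94% and 4.19% of genes. In the authors' deposited table, 27 members were lower and 4 higher in SJRH30 controls, 24 were lower and 0 higher in TLE3KO tumors, and all 25 members called in controls here were among its 31. The share of all genes called by the authors was not counted, so these counts stand without a background.

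The knockout comparisons ask whether loss of TLE3 moves HOX expression. In SJRH30, 0 of 39 members were called in either direction, where limma called 0.0% of 40028 genes higher and 0.00999% lower. An unadjusted p below 0.05 was reached by 1 member and by 3439 of the 40028 genes. In RD, 0 of 39 were called, where 0.0256% of 42917 genes were higher and 0.117% lower. There 2 members and 3614 of the 42917 genes had an unadjusted p below 0.05. Without the shallow libraries 0 members were called in SJRH30, against 0.196% of genes higher and 0.29% lower. Unadjusted p was then below 0.05 for 4 members and for 7773 of 39720 genes. In RD 0 were called, against 0.0865% higher and 0.246% lower, and unadjusted p was below 0.05 for 2 members and for 4128 of 42763 genes. The authors' deposited tables called 2 members lower in SJRH30 TLE3KO tumors, HOXA7 and HOXB9, and 0 in RD, and their share of all genes called was not counted. A p that misses the threshold does not show that the levels were alike.

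The intervals show what size of change the libraries allow. The 95% interval of the knockout difference lay within a 2-fold change either way (a log2 difference between −1 and 1) for 6 of 39 members in SJRH30 and 10 of 39 in RD, and for 14 and 30 without the shallow libraries. Over the members the log2 difference ran from −1.46 to 1.68 in SJRH30, with a median of 0.06 beside 0.17 over all genes. In RD it ran from −2.24 (HOXD12) to 0.31, with a median of −0.38 beside −0.09 over all genes. In RD 37 of 39 differences were negative with all libraries and 27 without TLE3KO 5, whose HOX sum was 2633 per kb against 5471 to 7885 in the other RD TLE3KO libraries. The RD median was then −0.11, beside 0.02 over all genes.

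HOXA7 and HOXB9 were the members that the authors' deposited table called in SJRH30, with log2 fold changes there of −1.005 and −2.003 and adjusted p-values of 0.0484 and 0.0316. The fit here gave −0.26 ± 0.63 and −1.46 ± 0.91 with all libraries (SE, limma adjusted p = 0.961 and 0.705) and −0.94 ± 0.31 and −1.37 ± 0.89 without the shallow ones (adjusted p = 0.137 and 0.4). The values printed above show HOXA7 at its highest in SJRH30 controls 2 and 4, with TLE3KO 3 above control 5. HOXB9 was at or below 28 in every SJRH30 library. In SJRH30, HOXA2 and HOXA13 had every TLE3KO library below every control, against 0.71% of genes in that direction, and 0 members lay above without overlap, against 1.57%. HOXA13, a limb and urogenital gene, was also named after its values were seen. It was listed at 14, 14, 28, 22 and 19 in SJRH30 TLE3KO libraries and at 54, 35, 131, 35 and 29 in SJRH30 controls. Its log2 difference of −1.31 ± 0.53 was not called (SE, limma adjusted p = 0.529). In RD no member separated in this way, against 0.62% of genes higher and 1.31% lower.

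**Figure D5:**
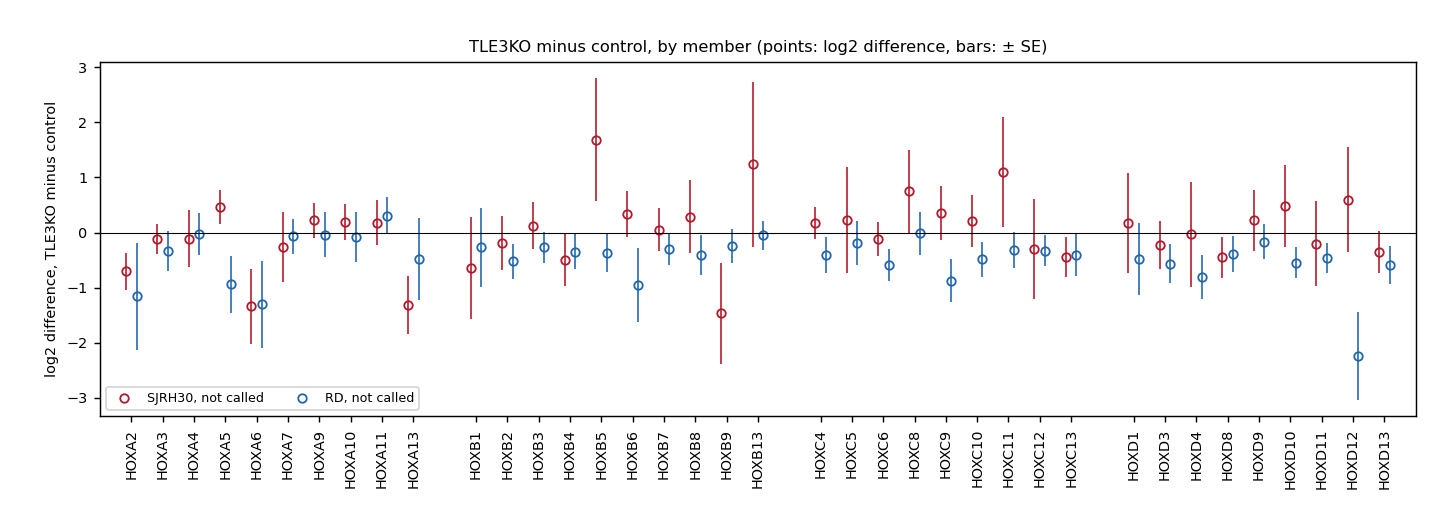
Log2 difference of TLE3KO from control tumors for 38 members in cluster order, in SJRH30 (left point) and RD (right point), with bars of ± SE. No point is filled, since no member passed a limma adjusted p of 0.05 in either line, and most RD points lie slightly below 0.

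The difference between the knockout effects of the lines was tested directly. It called 0 of 39 members, where 0.00226% of 44294 genes were higher and 0.00677% lower (limma). An unadjusted p below 0.05 was found for 2 members and for 2662 of the 44294 genes. Without the shallow libraries 0 members were called, against 0.0836% of genes higher and 0.113% lower. Unadjusted p was then below 0.05 for 4 members and for 4566 of 44263 genes.

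Of the genes for partners that bind DNA with HOX proteins, MEIS1 and MEIS2 fell in SJRH30 controls. Of the 9 TALE genes, 2 were lower in SJRH30 controls and 0 higher, against 12.5% lower and 6.23% higher of all genes. Their median log2 difference was −0.38 beside −0.45 over all genes. MEIS1 was listed at 873, 716, 452, 1179 and 732 in SJRH30 TLE3KO libraries and at 650, 592, 468, 497 and 634 in SJRH30 controls. RD libraries held 2521, 2218, 1871, 3021 and 1451 with the TLE3KO label and 1566, 1924, 2717, 1746 and 1810 as controls. The lines did not overlap, with a log2 difference in controls of −1.76 ± 0.28 (SE, limma adjusted p = 6.96e-05). MEIS2 differed by −1.10 ± 0.31 in controls (SE, limma adjusted p = 0.015). The differences of PBX2, PBX3, PBX4, MEIS3, PKNOX1 and PKNOX2 in controls were 0.72, −0.38, 0.62, 0.16, 0.58 and −0.58 and did not pass. With the shallow libraries left out, 4 TALE genes were higher, PBX2, PBX4, MEIS3 and PKNOX1, and 3 were lower. All genes were then 18.1% higher and 22.4% lower. No TALE gene was called in a knockout comparison of either line.

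Other transcripts of the clusters, the non-coding RNAs with PRAC1 and PRAC2, followed the line difference in part. Of 20 listed, 9 were lower in SJRH30 controls and 1 was higher, against 12.5% lower and 6.23% higher of all genes. Their median log2 difference was −1.35, beside −0.45 over all genes. Leaving out the shallow libraries gave 10 lower and 3 higher, against 22.4% and 18.1% of all genes, with a median of −1.08 beside −0.36. Beside PRAC1 and PRAC2, HOXD-AS2 and HOTAIR had the smallest p. HOTAIR, a non-coding RNA of the HOXC11 to HOXC12 interval, was listed at 42 to 70 in SJRH30 TLE3KO libraries and 43 to 142 in SJRH30 controls, against 262 to 780 in RD TLE3KO libraries and 296 to 571 in RD controls, with a log2 difference in controls of −2.92 ± 0.38 (SE, limma adjusted p = 6.09e-06). HOXD-AS2 differed by −2.29 ± 0.28 (SE, limma adjusted p = 3.21e-06). HOTAIRM1, a non-coding RNA of the HOXA cluster, was the one that was higher with all libraries, by 1.11 ± 0.32 (SE, limma adjusted p = 0.018). None of the 20 was called in a knockout comparison of either line.

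Genes around the clusters and regulators of HOX expression went both ways, and their counts depend on the shallow libraries. For the lists that follow, the background is 6.23% of all genes higher and 12.5% lower with all libraries, and 18.1% and 22.4% without the shallow ones. Of 47 protein-coding genes within 500 kb of a cluster, 7 were lower in SJRH30 controls and 1 was higher, and their median of −0.49 lay beside −0.45 over all genes. With the shallow libraries left out, 12 were lower and 14 higher, so lower genes no longer outnumbered higher ones. The median was then −0.10 beside −0.36. These 47 include PRAC1 and PRAC2, counted above with the cluster transcripts, and EVX2, also in the next list. They also hold AC004080.3, AC012531.2 and AC009336.2, which share exon bases with HOX members. Of 15 other homeobox genes, 3 were lower (EN1, MEOX2 and EVX2) and 2 higher (MNX1 and GBX2), and 7 were lower and 2 higher without the shallow libraries. MNX1, a motor neuron gene, was higher by 3.34 ± 0.46 and GBX2, a hindbrain boundary gene, by 2.41 ± 0.46 (SE, limma adjusted p = 1.42e-05 and 0.000603). Of 31 Polycomb genes 3 were higher (RBBP7, PCGF3 and EZH1) and 3 lower (CBX7, RYBP and PCGF5), and 11 were higher and 7 lower without the shallow libraries. Of 19 trithorax and MLL genes 3 were higher (KMT2D, PSIP1 and MEN1) and 2 lower (ASH2L and MLLT3), and 7 were higher and 4 lower without the shallow libraries. Of 21 CDX and retinoic acid genes 2 were higher and 6 lower, and 4 and 8 without the shallow libraries. Among them were RDH10, which makes retinal, lower with a log2 difference of −1.83 ± 0.37, and STRA6, a receptor for vitamin A uptake, higher by 3.24 ± 0.66 (SE, limma adjusted p = 0.000958 and 0.00125).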

How the data were processed

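Poly(A) RNA of 20 xenograft tumors was sequenced, 5 per group, with groups taken from the sample titles. Per the submitters' processing notes the tools were FastQC, fastp 0.20.1, STAR 2.7, featureCounts and edgeR with GRCh38 p7, without order or settings. RNA was extracted with 1 of 2 kits, not assigned to tumors. The deposited score values are normalized counts that the authors scaled between libraries and rounded. The comparison tables hold a fold change (ratio), its log2 value, a p-value and an adjusted p-value, all computed and deposited by the authors, per the file headers.

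Here log2(value + 1) was fitted for genes that reached 1 in 5 or more libraries with limma 3.58.1 in R 4.3.3 with a trended prior, tested on simulated data. The line comparisons and the interaction used all 20 libraries, each knockout comparison its own 10, and a call needed an adjusted p below 0.05. No raw counts were at hand, so no count model was run, and per-sample precision is limited by the spread of 5 libraries. Gene positions and exon overlap come from GENCODE 29, promoters from RefSeq.

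Values of some listed genes are not reported here. The members and lists were chosen with earlier results of these data known. Library values are printed for the 3 most abundant members per kb of each cluster in each control group, for members called in a knockout comparison and for members present in 1 line only with the largest differences. HOXA2, HOXA13 and HOXB13 fall outside this rule, and their library values are printed because of values already seen. Tried alternatives were other added constants, filters, scalings, sets of libraries, a replicate block, a robust prior, and libraries left out.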

Additional observations from a re-analysis of the deposited data

Results flagged for a closer look

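Within groups of 5 libraries, 1 library stood apart from the other 4 in 5 of 96 sets of values examined by Dixon's test at the 95% level, and chance gives about 1 in 20. HOXC4 was at 754 in SJRH30 TLE3KO 5, and the next value in that group was 607. HOXD11 was at 44 in the shallow SJRH30 control 3, and the next value was 12. Among RD TLE3KO libraries the shallow library 5 was low for HOXC6, at 558 with the next at 1395, for HOXC9, at 118 with the next at 475, and for the HOXC sum, at 722.9 per kb with the next at 1654.7. These were given as values only, and what sets library 5 apart was not tested.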

How the results depend on the processing

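Under the settings tried with all 20 libraries or with a comparison's own 10, 22 to 26 members were called between the control groups and 17 to 20 between the TLE3KO groups, and 0 in both knockout comparisons and in their difference. Of 30291 to 44294 genes tested, these settings called 1942 to 4694 higher and 3711 to 5531 lower between controls. Between TLE3KO groups they called 2905 to 5727 genes higher and 3342 to 5262 lower. Without both shallow libraries the counts were 31, 26 and 0, where 18.1% of genes were higher and 22.4% lower between controls, and 12.6% and 14.2% between TLE3KO groups. With 1 library left out in turn the counts were 20 to 28, 15 to 22 and 0. The background moved more, with 2056 to 7128 genes higher and 4085 to 8405 lower between controls. Between TLE3KO groups 2601 to 6402 genes were higher and 3027 to 6198 lower. The most were called without SJRH30 control 3. The replicate block gave 23, 17 and 0 calls, and no pairing was shown, since the correlation of same-numbered libraries ran from −0.485 to 0.345.

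Signs turned for members that were not called. Most of these were near 0 with all libraries, but HOXB13 was at −1.24 ± 1.15 (SE) in controls. In controls, HOXA3, HOXB2 and HOXB3 were at 0.12, 0.17 and 0.026 with shifted medians, and HOXB2, HOXB3 and HOXB13 at 0.30, 0.076 and 0.59 without the shallow libraries. In TLE3KO tumors, HOXA3, HOXA6, HOXB2 and HOXB3 were at −0.36, −0.78, −0.011 and −0.14 without them, HOXA6 at −0.085 with 8 added before the log, and HOXC9 at 0.10 with shifted medians. With 1 library left out, control differences ran from −0.12 to 0.32 for HOXA6, −0.39 to 0.30 for HOXB2, −0.53 to 0.076 for HOXB3 and −1.88 to 0.59 for HOXB13. In TLE3KO tumors they ran from −0.36 to 0.20 for HOXA3, −0.78 to 0.56 for HOXA6, −0.011 to 0.42 for HOXB2, −0.14 to 0.23 for HOXB3, −0.43 to 0.091 for HOXC9 and −0.11 to 0.26 for HOXB13. The cause was not tested. SJRH30 control 3 and RD TLE3KO 5 are shallow, so low genes there are coarse, and HOXA7 and HOXB4 were called without the first.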
